A study of Mus musculus with 2 samples.

Results

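The genes described here are 9 genes of blood coagulation and fibrinolysis, F3, F7, F10, F13a1, Plau, Plaur, Thbd, Procr and Tfpi, taken by symbol from the 32285 genes of a single-cell RNA-seq matrix of mouse dorsal skin. They were picked with results of these data in view, so that the levels below describe the genes and no test was made of them. The cells had been sorted as F4/80+MHCII-hi from the skin of wild-type (WT) male mice aged 9 or 108 weeks and were sequenced without culture, and no treatment is given. At each age 1 library was made from the pooled skin of 2 mice. Both libraries stand in 1 matrix and are marked by a barcode suffix, 1 or 2, which the sources used here tie to no age. The ages are therefore not compared, and each level is given over both libraries and, where a result turns on it, in each library of unknown age.

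The filter kept 3797 of 5257 barcodes, 2396 with suffix 1 and 1401 with suffix 2, with a median of 10870 UMIs (distinct RNA molecules counted) per cell. Although the cells were labelled macrophages, 2039 of them (53.7%) lay in the 13 clusters that carried macrophage, monocyte or dendritic markers, here called macrophage cells. The rest were mostly fibroblast-like (826 cells), endothelial-like (295), pericyte-like (170), muscle-like (142) and Schwann-like (126). A name ending in like rests on marker lists. A macrophage cluster is called by its 3 leading genes where no list of macrophage subsets stood clearly above the others. Most clusters so called matched more than 1 list, and only the Hist1h2ap-Pclaf-Top2a cluster matched none. None of the 9 genes is on a marker list, and none was used to form the clusters. Levels are given as CPM, the UMIs of a gene per 1000000 UMIs of the group, with exact 95% Poisson intervals that cover counting error only. Since the 3′ ends of transcripts were counted, CPM are compared between groups of cells for 1 gene and not between genes.

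Coagulation starts when factor VII meets tissue factor, a membrane protein encoded by F3 that cells outside the vessel carry and blood does not normally touch. The complex activates factor X, factor Xa generates thrombin, thrombin makes fibrin, and factor XIII, whose catalytic A subunit is encoded by F13a1, crosslinks the fibrin. The pathway is held back by tissue factor pathway inhibitor (Tfpi), which blocks factor Xa and the tissue factor complex, and by thrombomodulin (Thbd) and the endothelial protein C receptor (Procr), which together let thrombin activate protein C. Fibrin is later removed by plasmin, which urokinase (Plau) releases from plasminogen at the surface of cells that carry the urokinase receptor (Plaur). Most circulating clotting factors are made by the liver, while endothelium is known for thrombomodulin and the protein C receptor, and perivascular cells and fibroblasts for tissue factor.

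**Figure D1:**
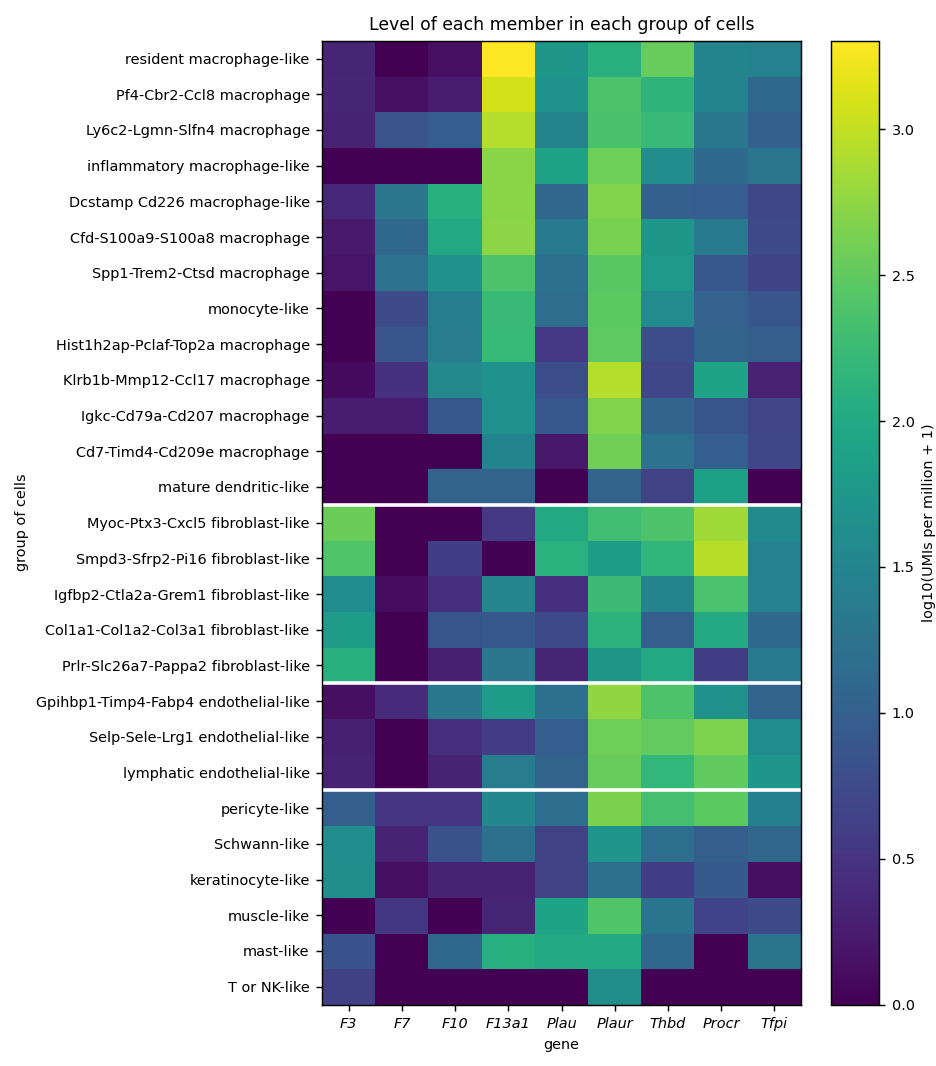
Level of each of the 9 genes (columns) in each group of cells (rows), as log10 of CPM plus 1; white lines part macrophage groups, fibroblast-like clusters, endothelial-like groups and other cells. F13a1 is high in the upper macrophage rows, F3 in the fibroblast-like rows, and F7 and F10 are seen mainly in some of the macrophage rows.

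The receptor that starts coagulation and the factors that act after it lay in different cells. Of the 2245 UMIs of F3, 18 lay in macrophage cells, F7 and F10 were found mainly in some macrophage groups, and F13a1 was found across most macrophage groups with its highest level in the resident macrophage-like cells. Of the 27 pairs formed by the 9 genes and the macrophage, fibroblast-like and endothelial-like cells, 16 reached 20 CPM. The share of all genes that reach this level was not computed, so the count is a description only. In the macrophage cells, 4 of the 9 genes (F7, F10, F13a1 and Plaur) were at least 2-fold higher than in the fibroblast-like cells, where 19.9% of the 14964 genes with 10 UMIs or more over both groups were as much higher. Another 3 (F3, Procr and Tfpi) were at least 2-fold lower, against 29.9% of those genes. Of these calls that of Plaur was lost in the library with suffix 2, and Plau passed the 2-fold limit in opposite directions in both libraries, as given below. The median log2 ratio of the 9 genes was -0.36, beside -0.20 over all genes compared.

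Tissue factor transcripts, F3 (ENSMUSG00000028128, chr3:121723537-121735048, plus strand), stood at 152 CPM (146 to 159, 2052 UMIs) in the fibroblast-like cells. By library it was 119 CPM in the library with suffix 1 and 190.4 CPM in the library with suffix 2. The macrophage cells held 0.707 CPM (0.419 to 1.12, 18 UMIs) of it and the endothelial-like cells 0.537 CPM (0.0650 to 1.94, 2 UMIs). The log2 ratio of macrophage over fibroblast-like cells was -7.75 (-8.51 to -7.09), which makes F3 215-fold higher in the fibroblast-like cells. F3 did not exceed 1.38 CPM in those of the 13 macrophage groups that held a UMI of it. The other 5 held none, and in the smallest of them, the mature dendritic-like cells, 3 counts would have been 10.2 CPM.

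Among the fibroblast-like clusters, F3 was highest in the Myoc-Ptx3-Cxcl5 cluster with 361 CPM (341 to 381, 1258 UMIs). The Smpd3-Sfrp2-Pi16 cluster followed with 254 CPM (203 to 315, 83 UMIs), but 94.0% of these UMIs came from 5 of its 27 cells. The Prlr-Slc26a7-Pappa2 cluster held 115 CPM (104 to 127, 389 UMIs), the Col1a1-Col1a2-Col3a1 cluster 63.4 CPM (54.8 to 73.1, 192 UMIs) and the Igfbp2-Ctla2a-Grem1 cluster 39.8 CPM (33.2 to 47.2, 130 UMIs), in that order and with intervals that do not overlap. The first of these clusters came largely from 1 library, with 283 of its 345 cells from suffix 2, and the Col1a1-Col1a2-Col3a1 cluster almost wholly from the other, with 137 of 138 cells from suffix 1. Outside the fibroblasts, keratinocyte-like cells held 41.4 CPM (34.2 to 49.8, 113 UMIs) and Schwann-like cells 40.6 CPM (28.4 to 56.2, 36 UMIs), intervals that overlap, while the pericyte-like cells held 9.05 CPM (5.599 to 13.8, 21 UMIs). The Schwann-like cells also held fibroblast markers at a summed 4661 CPM, compared with 186 CPM in the keratinocyte-like cells. Without the 22.2% of Schwann-like cells that carried foreign markers above 0.5% of their UMIs, their F3 level was 22.8 CPM (12.1 to 38.96, 13 UMIs). With such cells left out, the pericyte-like level of F3 fell to 2.22 CPM (0.457 to 6.48, 3 UMIs). In keratinocyte-like cells the level was 14.04 CPM in the library with suffix 1 and 87.5 CPM in the library with suffix 2, and 64.6% of the UMIs came from 5 of 77 cells.

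After each cell was thinned to 2000 UMIs, 18.5% (15.8 to 21.4) of 780 fibroblast-like cells had a UMI of F3, compared with 0.0508% (0.00129 to 0.282) of 1970 macrophage cells. Without thinning the shares were 40.3% and 0.883%, at median depths of 13108 and 11036 UMIs. The gap between both kinds of cell was present at either depth.

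Factor VII and factor X, the vitamin K-dependent proteases of which the former binds tissue factor and the latter is activated by that complex, are encoded by neighbours on chromosome 8. F7 (ENSMUSG00000031443) lies at chr8:13026034-13035809 and F10 (ENSMUSG00000031444) at chr8:13037308-13056676, both on the plus strand, with 1498 bases between them. The stretches around their starts, from 250 bases before to 50 bases after, are shown because both genes were found mainly in the same macrophage groups. Neither held a match to any of the 5 motifs searched, so that no letters are in capitals (RefSeq, GRCm38.p6).
F7, chr8:13025784-13026083, plus strand: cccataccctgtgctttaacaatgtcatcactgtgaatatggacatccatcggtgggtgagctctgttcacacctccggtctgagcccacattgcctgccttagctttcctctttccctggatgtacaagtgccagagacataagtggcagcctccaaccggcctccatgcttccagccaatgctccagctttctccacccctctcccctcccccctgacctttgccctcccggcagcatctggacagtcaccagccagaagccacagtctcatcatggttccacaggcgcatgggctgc
F10, chr8:13037058-13037357, plus strand: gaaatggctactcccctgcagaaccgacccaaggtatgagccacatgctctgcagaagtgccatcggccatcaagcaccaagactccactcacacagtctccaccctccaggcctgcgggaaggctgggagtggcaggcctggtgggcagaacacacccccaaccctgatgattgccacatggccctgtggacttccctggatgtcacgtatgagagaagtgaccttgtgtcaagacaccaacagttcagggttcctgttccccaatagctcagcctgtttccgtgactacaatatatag

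F10 stood at 40.9 CPM (38.5 to 43.5, 1042 UMIs) in the macrophage cells, with 39.5 CPM in the library with suffix 1 and 44.96 CPM in the library with suffix 2. Its level ran from 121 CPM (110.0 to 133, 438 UMIs) in the Dcstamp Cd226 macrophage-like cells to none in the inflammatory macrophage-like and Cd7-Timd4-Cd209e groups, where 3 counts would have been 9.35 and 2.02 CPM. The Cfd-S100a9-S100a8 cluster held 97.7 CPM (86.4 to 110.0, 273 UMIs), and the upper bound of its interval meets the lower bound of the former. The Spp1-Trem2-Ctsd cluster followed with 47.4 CPM (38.04 to 58.4, 88 UMIs) and the Klrb1b-Mmp12-Ccl17 cluster with 34.4 CPM (28.9 to 40.7, 138 UMIs), whose intervals overlap. The resident macrophage-like cells held 1 UMI of F10, or 0.393 CPM, and the Pf4-Cbr2-Ccl8 cluster 2.

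The 2 groups that led for F10 led in each library, with 125 and 102 CPM for suffix 1 and 2 in the Dcstamp Cd226 macrophage-like cells and 97.3 and 98.4 CPM in the Cfd-S100a9-S100a8 cluster. The latter cluster also held the neutrophil markers S100a8, S100a9, Retnlg, Csf3r, Ly6g and Cxcr2 at a summed 551 CPM, compared with 0 to 104 CPM in the other 12 macrophage groups. All 6 were detected in it, and their part in its F10 level was not tested. The Dcstamp Cd226 macrophage-like cells, with the highest F10 level, held 8.85 CPM of the same list, with S100a9, Retnlg and Ly6g at 0.

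F7 was sparser, at 6.71 CPM (5.74 to 7.799, 171 UMIs) in the macrophage cells, and 14 UMIs lay elsewhere. It was highest in the Dcstamp Cd226 macrophage-like cells with 19.4 CPM (15.1 to 24.4, 70 UMIs), followed by the Spp1-Trem2-Ctsd cluster with 16.7 CPM (11.4 to 23.7, 31 UMIs) and the Cfd-S100a9-S100a8 cluster with 11.8 CPM (8.13 to 16.6, 33 UMIs). The intervals of these 3 groups overlap. The resident macrophage-like cells held no UMI of F7 among 2544789, which allows up to 1.18 CPM, and the fibroblast-like cells 1 among 13482252. Taking 3 counts as the limit in that group, F7 was at least 6.33-fold lower there than in the macrophage cells of all other groups.

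**Figure D2:**
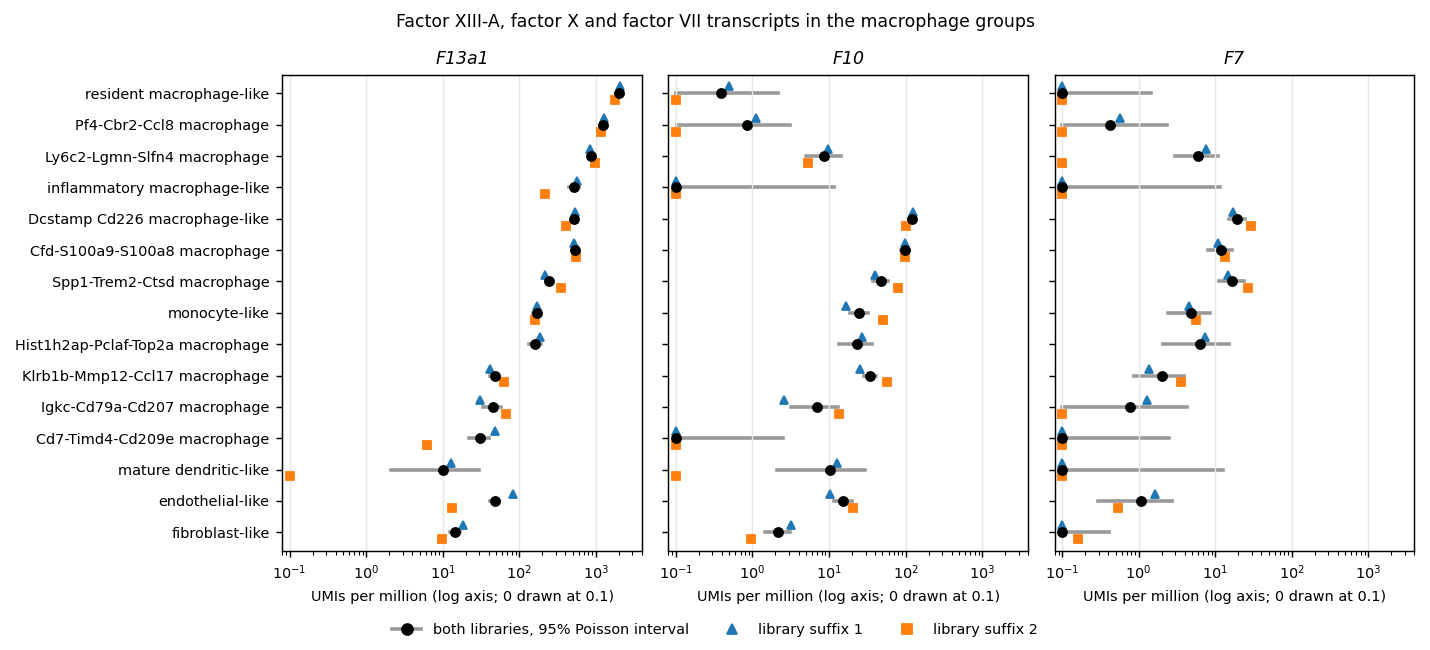
CPM of F13a1, F10 and F7 (log axes, 0 drawn at 0.1) in the 13 macrophage groups, endothelial-like and fibroblast-like cells; black points pool both libraries with 95% Poisson intervals, triangles and squares are the libraries with suffix 1 and 2, drawn where a library gave at least 5 cells. F13a1 falls from 2013 CPM in resident macrophage-like cells to 10.2 CPM in mature dendritic-like cells, while F10 peaks at 121 CPM and F7 at 19.4 CPM in Dcstamp Cd226 macrophage-like cells and both are at or near 0 in resident macrophage-like cells.

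Over the 28 clusters, the log2 levels of F7 and F10 were correlated with r = 0.75, as a description of clusters that share libraries and differ in depth. Within single cells thinned to 2000 UMIs, 5 of the 16 macrophage cells with a UMI of F7 also had one of F10 (31.3%, 11.02 to 58.7), as did 92 of the 1954 without (4.71%, 3.81 to 5.74). Most of these cells lay in 1 group. In the Dcstamp Cd226 macrophage-like cells alone, 4 of 6 cells with F7 had F10 (66.7%, 22.3 to 95.7), compared with 37 of 248 without (14.9%, 10.7 to 19.97). The share was 1 of 5 in the Spp1-Trem2-Ctsd cluster and 0 of 2 in the Cfd-S100a9-S100a8 cluster. No cell with both was found in any other macrophage group. By contrast, F10 was found in 4.95% (3.67 to 6.51) of the 969 macrophage cells with a UMI of F13a1 and in 4.90% (3.64 to 6.42) of the 1001 without.

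F13a1 (ENSMUSG00000039109, chr13:36867178-37050244, minus strand), the A subunit of factor XIII, stood at 566 CPM (557 to 575, 14420 UMIs) in the macrophage cells, with 597 CPM in the library with suffix 1 and 476 CPM in the library with suffix 2. The resident macrophage-like cells, defined by Folr2, Lyve1 and Cd209f among other markers, led with 2013 CPM (1958 to 2069, 5123 UMIs). They were followed by the Pf4-Cbr2-Ccl8 cluster with 1245 CPM (1200.0 to 1291, 2935 UMIs), where F13a1 is among the 10 leading genes, and the Ly6c2-Lgmn-Slfn4 cluster with 871 CPM (829 to 915, 1597 UMIs). These 3 levels do not overlap. The order held in each library, with 2068 and 1787 CPM for suffix 1 and 2 in the resident macrophage-like cells, 1273 and 1160.3 CPM in the Pf4-Cbr2-Ccl8 cluster and 847 and 963 CPM in the Ly6c2-Lgmn-Slfn4 cluster.

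At a middle level, the Cfd-S100a9-S100a8 cluster held 531 CPM (504 to 559, 1484 UMIs), the inflammatory macrophage-like cells 518 CPM (442 to 603, 166 UMIs) and the Dcstamp Cd226 macrophage-like cells 514 CPM (491 to 538, 1858 UMIs), and these 3 intervals overlap. The monocyte-like cells held 169 CPM (153 to 187, 386 UMIs), and the lowest level was that of the mature dendritic-like cells with 10.2 CPM (2.103 to 29.8, 3 UMIs). F13a1 was thus spread over groups with and without F10. The Dcstamp Cd226 macrophage-like cells held both, the resident macrophage-like cells only the former beyond 1 UMI.

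Factor XIII-A is also known from platelets, so the platelet markers were set beside it. Pf4 stood at 3850 CPM in the resident macrophage-like cells and 3533 CPM in the Pf4-Cbr2-Ccl8 cluster, and at 17.0 CPM in the Klrb1b-Mmp12-Ccl17 cluster. Of the other 4 markers, Ppbp stood at 4.72 CPM and Itga2b at 0.39 CPM in the resident macrophage-like cells, and Gp9 and Gp1bb had no UMI in any macrophage group. Gp9 and Gp1bb belong to the platelet glycoprotein Ib complex. Summed over all 5 markers, the list ran among the macrophage groups from 17.2 CPM in the Klrb1b-Mmp12-Ccl17 cluster to 4135 CPM in the inflammatory macrophage-like cells, of which Pf4 gave 4116 CPM.

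After thinning, 96.2% (93.4 to 98.1) of 293 resident macrophage-like cells had a UMI of F13a1. In the keratinocyte-like cells 0 of 73 had one, so that a share of up to 4.11% is allowed. Without thinning the shares were 100% and 3.896%, at median depths of 8681 and 20204 UMIs. The 5 resident macrophage-like cells with the most F13a1 held 4.65% of its UMIs in that group.

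Outside the macrophages F13a1 was found at 47.5 CPM (40.8 to 55.1, 177 UMIs) in endothelial-like and 14.5 CPM (12.6 to 16.7, 196 UMIs) in fibroblast-like cells. In the latter, 55.1% of the UMIs came from 5 of 826 cells. The endothelial level was 82.01 CPM in the library with suffix 1 and 13.4 CPM in the library with suffix 2. It came from the Gpihbp1-Timp4-Fabp4 cluster with 64.99 CPM (55.7 to 75.4, 174 UMIs), against 2.86 CPM (0.590 to 8.37, 3 UMIs) in the Selp-Sele-Lrg1 cluster, and F10 behaved likewise with 20.5 CPM (15.5 to 26.7, 55 UMIs) and 1.91 CPM (0.231 to 6.89, 2 UMIs). The same Gpihbp1-Timp4-Fabp4 cluster held 8 of 8 macrophage markers at a summed 2048 CPM, compared with 56.3 CPM in the Selp-Sele-Lrg1 cluster and 13093 CPM in the macrophage cells. Without the 9.49% of endothelial-like cells that carried macrophage or other foreign markers above 0.5% of their UMIs, the endothelial-like cells held 21.6 CPM (16.7 to 27.5, 66 UMIs) of F13a1 and 4.59 CPM (2.51 to 7.696, 14 UMIs) of F10.

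Macrophage and endothelial-like cells differed by at least 2-fold in 6 of the 9 genes. F7, F10 and F13a1 were higher in the macrophage cells, as were 16.8% of the 13885 genes compared, and Thbd, Procr and Tfpi were lower, as were 26.9%. The log2 ratios were 2.64 (1.26 to 4.54) for F7, 1.42 (1.03 to 1.83) for F10 and 3.57 (3.36 to 3.80) for F13a1. Without the cells carrying foreign markers, the number higher rose to 5, with F3 and Plau added, and the ratios of F10 and F13a1 rose to 3.16 and 4.71. The added F3 rests on 18 UMIs in macrophage and 1 in endothelial-like cells.

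The anticoagulant receptors were shared between vascular cells, fibroblast-like clusters and, for thrombomodulin, resident macrophages. Thbd (ENSMUSG00000074743, chr2:148404466-148408188, minus strand), the thrombin receptor that turns thrombin towards protein C, stood at 265 CPM (249 to 282, 988 UMIs) in the endothelial-like cells, with 235 CPM in the library with suffix 1 and 295 CPM in the library with suffix 2. Pericyte-like cells held 209 CPM (191 to 229, 486 UMIs), lymphatic endothelial-like cells 151 CPM (127 to 179, 134 UMIs) and the Myoc-Ptx3-Cxcl5 fibroblast-like cluster 243 CPM (227 to 260.1, 848 UMIs), against 99.9 CPM (94.6 to 105, 1347 UMIs) in all fibroblast-like cells. Of the 170 pericyte-like cells, 52 (30.6%) carried foreign markers, and the group held endothelial markers at a summed 3967 CPM, compared with 5533 CPM in the endothelial-like cells, and erythroid markers at 8042 CPM, compared with 2349 CPM. Without those 52 cells the pericyte-like level of Thbd was 163 CPM (142 to 186, 221 UMIs). The macrophage cells as a whole held 77.8 CPM (74.4 to 81.3, 1981 UMIs), and their log2 ratio to the endothelial-like cells was -1.77 (-1.88 to -1.66).

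The macrophage groups differed widely in Thbd. The resident macrophage-like cells held 348 CPM (325 to 371, 885 UMIs) of Thbd, which is above the endothelial-like level, with intervals that do not overlap, and overlaps that of the Selp-Sele-Lrg1 endothelial-like cluster at 325 CPM (292 to 362, 341 UMIs). In each library their level was close to this, at 341 and 374 CPM for suffix 1 and 2. The Ly6c2-Lgmn-Slfn4 and Pf4-Cbr2-Ccl8 clusters followed with 169 and 138 CPM, while the Dcstamp Cd226 macrophage-like cells held 9.399 CPM (6.51 to 13.1, 34 UMIs) and the Klrb1b-Mmp12-Ccl17 cluster 3.99 CPM (2.28 to 6.48, 16 UMIs). Against all other macrophages, the resident macrophage-like cells had a log2 ratio of 2.86 (2.73 to 2.99) for Thbd. A UMI of Thbd was found in 29.7% (24.5 to 35.3) of the thinned resident macrophage-like cells and in 1.37% (0.0347 to 7.398) of the keratinocyte-like ones, and at full depth in 47.8% and 9.09%, at the median depths given above.

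Procr (ENSMUSG00000027611, chr2:155751117-155755471, plus strand), the receptor that presents protein C to the thrombin and thrombomodulin complex, was highest in some of the fibroblast-like clusters. The Smpd3-Sfrp2-Pi16 fibroblast-like cluster held 898 CPM (798 to 1007, 293 UMIs) and the Myoc-Ptx3-Cxcl5 cluster 679.8 CPM (653 to 708, 2371 UMIs), the same pair of clusters in which F3 was highest. The Selp-Sele-Lrg1 endothelial-like cluster held 459.9 CPM (419.8 to 503, 482 UMIs), of which 67.0% came from 5 of 48 cells and which fell to 344 CPM (307 to 385, 315 UMIs) without the 3 cells carrying foreign markers, while the larger Gpihbp1-Timp4-Fabp4 cluster held 47.8 CPM (39.9 to 56.8, 128 UMIs). The Prlr-Slc26a7-Pappa2 fibroblast-like cluster, which carried F3, held only 2.96 CPM (1.42 to 5.45, 10 UMIs). Without the cells carrying foreign markers, pericyte-like cells held 373 CPM (341 to 407, 505 UMIs) of Procr. Lymphatic endothelial-like cells then held 317 CPM (280 to 356, 276 UMIs). In the same setting the Igfbp2-Ctla2a-Grem1 and Col1a1-Col1a2-Col3a1 fibroblast-like clusters were lower, at 230 and 99.8 CPM.

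Over all fibroblast-like cells Procr stood at 277 CPM (268 to 286, 3737 UMIs), but at 117 CPM in the library with suffix 1 and 461 CPM in the library with suffix 2. The libraries also differed in makeup, and the part of this in the gap was not tested. The Myoc-Ptx3-Cxcl5 cluster made up 283 of the 508 fibroblast-like cells with suffix 2 and 62 of the 318 with suffix 1. Within that cluster the levels were closer, at 547 and 711 CPM for suffix 1 and 2, while in the Igfbp2-Ctla2a-Grem1 cluster they were 13.8 and 252 CPM, the former from 23 cells. The macrophage cells held 27.1 CPM (25.1 to 29.2, 691 UMIs), and among them the Klrb1b-Mmp12-Ccl17 cluster was highest with 80.6 CPM (72.05 to 89.9, 323 UMIs), an interval that overlaps the 74.8 CPM (46.9 to 113, 22 UMIs) of the mature dendritic-like cells. In the resident macrophage-like cells, where Thbd was high, Procr stood at 29.9 CPM (23.5 to 37.4, 76 UMIs), with a log2 ratio of 0.15 (-0.21 to 0.50) against all other macrophages.

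**Figure D3:**
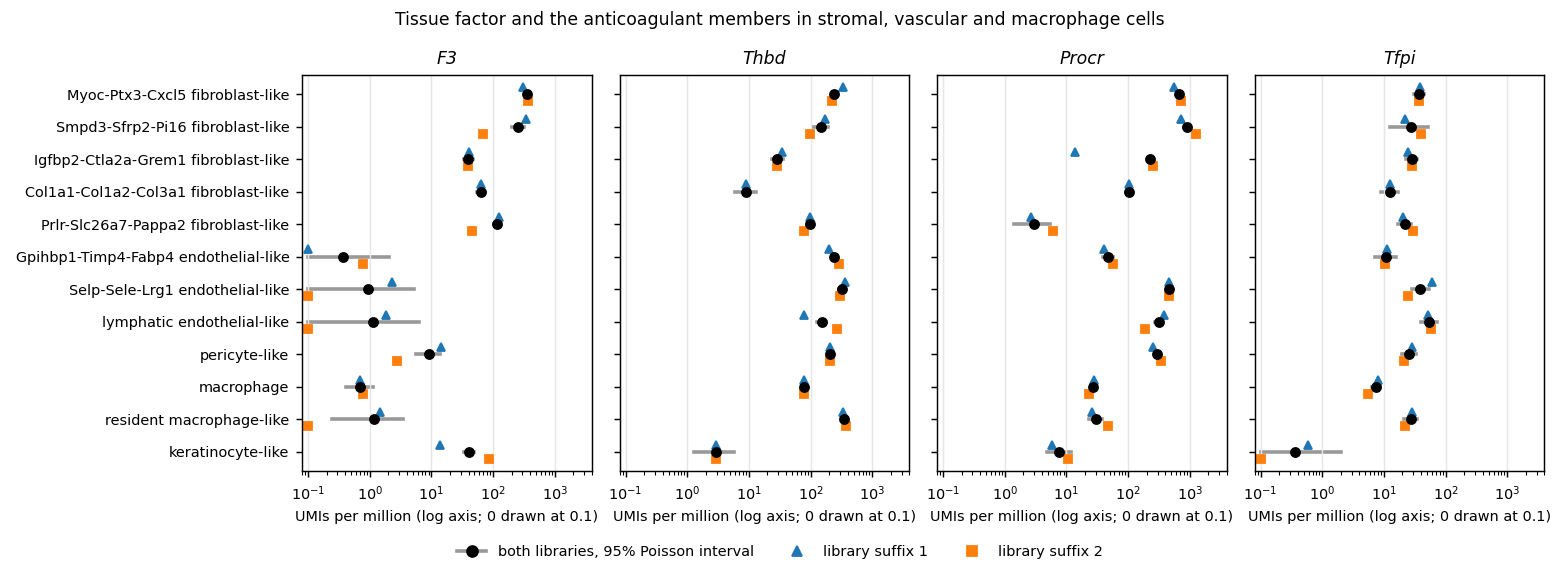
CPM of F3, Thbd, Procr and Tfpi (log axes, 0 drawn at 0.1) in fibroblast-like clusters, endothelial-like groups, pericyte-like, macrophage, resident macrophage-like and keratinocyte-like cells, with symbols as in the plot of the coagulation factors. F3 lies above 39 CPM in each fibroblast-like cluster and at or below 1.18 CPM in both macrophage rows, while Thbd of the resident macrophage-like cells, at 348 CPM, lies next to the 325 CPM of the Selp-Sele-Lrg1 row.

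Tfpi (ENSMUSG00000027082, chr2:84432855-84476775, minus strand), the inhibitor of the initiating step, stood at 54.2 CPM (39.9 to 71.8, 48 UMIs) in lymphatic endothelial-like cells and 39.1 CPM (28.1 to 53.1, 41 UMIs) in the Selp-Sele-Lrg1 endothelial-like cluster, intervals that overlap. Its level was 25.4 CPM (22.7 to 28.2, 342 UMIs) in fibroblast-like and 25.4 CPM (19.3 to 32.8, 59 UMIs) in pericyte-like cells, and 22.9 CPM (15.6 to 32.5, 31 UMIs) in the latter without the cells carrying foreign markers. For the macrophage cells it was 7.499 CPM (6.47 to 8.64, 191 UMIs), with -1.76 (-2.02 to -1.50) as the log2 ratio to the fibroblast-like cells. Among them Tfpi was highest in the resident macrophage-like cells with 27.1 CPM (21.1 to 34.3, 69 UMIs), which set against all other macrophages made a log2 ratio of 2.35 (1.90 to 2.79). The inflammatory macrophage-like cells followed with 18.7 CPM (6.87 to 40.7, 6 UMIs), an interval that overlaps it, and the Klrb1b-Mmp12-Ccl17 cluster held 0.998 CPM (0.272 to 2.56, 4 UMIs).

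Across the 28 clusters, Thbd and Tfpi had the highest correlation of any pair of the 9 genes, with r = 0.78, followed by F7 and F10. Both are descriptions over clusters that share libraries. In the resident macrophage-like cells 4 of the 9 genes (F13a1, Plau, Thbd and Tfpi) were at least 2-fold higher than in all other macrophages, beside 11.9% of 12930 genes compared, and 3 (F7, F10 and Plaur) at least 2-fold lower, beside 12.5%. In the Dcstamp Cd226 macrophage-like cells F3, F7 and F10 were higher, beside 3.43%, and Thbd and Procr lower, beside 17.8%, but the ratio of Procr was -0.38 (-1.42 to 0.50) in the library with suffix 2. The log2 ratio of F3 in these cells, 1.22 (-0.62 to 2.80), rests on 5 UMIs and its interval includes 0, while those of F7 and F10 were 2.07 (1.60 to 2.52) and 2.13 (1.95 to 2.31). In the monocyte-like cells none of the 9 genes was at least 2-fold higher, beside 8.11%, and F13a1, Thbd and Procr were lower, beside 7.81%. That of Thbd was -0.79 in the library with suffix 1 and turned with the borders of the cluster, to a log2 ratio of 0.32 under a looser filter on cells.

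The 2 smallest named groups rested on few UMIs. In the 41 inflammatory macrophage-like cells Plau and Tfpi were at least 2-fold higher than in all other macrophages, beside 9.96% of genes, and F10 and Procr lower, beside 14.8%. The intervals of Tfpi, on 6 UMIs, and Procr, on 4, include 0. In the 21 mature dendritic-like cells Procr was higher, beside 12.6%, and F10, F13a1, Plau, Plaur and Thbd were lower, beside 16%. Of the calls in both groups, F10 in the former group and Procr in the latter turned with the borders of the clusters, to log2 ratios of 1.35 with 3000 variable genes and -0.73 under a looser filter on cells. Among the groups called by leading genes, the Klrb1b-Mmp12-Ccl17 cluster had Plaur and Procr at least 2-fold higher, beside 3.59%, and 6 of the 9 genes lower (F3, F7, F13a1, Plau, Thbd and Tfpi), beside 22.4%. That of F3 rests on 1 UMI against 17, with an interval that includes 0. The Pf4-Cbr2-Ccl8 cluster had F13a1 and Plau higher, beside 7.67%, and F7 and F10 lower, beside 10.5%. In the Cfd-S100a9-S100a8 cluster F10 was higher, beside 3.82%, and none of the 9 was lower, beside 8.74%.

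In the Spp1-Trem2-Ctsd cluster F7 was at least 2-fold higher, beside 8.85%, and F13a1, Procr and Tfpi were lower, beside 9.3%. The ratio of F13a1 was -1.53 in the library with suffix 1 but -0.46 in that with suffix 2, and that of Tfpi, -1.05 (-2.38 to 0.03), rests on 7 UMIs and its interval includes 0. In the Ly6c2-Lgmn-Slfn4 cluster Thbd was higher, beside 9.06%, with a ratio of 0.80 in the library with suffix 2, and F10 lower, beside 5.93%. F7, F10, F13a1, Plau, Thbd and Procr were lower in both the Cd7-Timd4-Cd209e cluster, beside 17.3%, and the Igkc-Cd79a-Cd207 cluster, beside 11.9%, and no member was higher, beside 8.29% and 10.5%. In the Hist1h2ap-Pclaf-Top2a cluster, led by genes of dividing cells, F13a1, Plau, Thbd and Procr were lower, beside 10.3%, and none was higher, beside 14.5%. Procr in that cluster rests on 8 UMIs, with a ratio of 0.32 (-1.98 to 1.89) in the library with suffix 2.

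Urokinase, the plasminogen activator encoded by Plau (ENSMUSG00000021822, chr14:20836660-20843385, plus strand), was found in several kinds of cell, at 31.00 CPM (28.1 to 34.1, 418 UMIs) in fibroblast-like, 20.8 CPM (19.04 to 22.6, 529 UMIs) in macrophage and 13.4 CPM (9.96 to 17.7, 50 UMIs) in endothelial-like cells. The log2 ratio of macrophage over fibroblast-like cells was -0.58 (-0.77 to -0.39) over both libraries, which pools opposite directions. Suffix 1 alone gave 1.04 (0.69 to 1.40) and suffix 2 alone -1.86 (-2.20 to -1.52), each past the 2-fold limit. The macrophage level was 22.8 CPM in the library with suffix 1 and 14.9 CPM in the library with suffix 2 and the fibroblast level 11.1 CPM in the library with suffix 1 and 53.9 CPM in the library with suffix 2. As for Procr, the part that the differing share of the Myoc-Ptx3-Cxcl5 cluster had in the latter gap was not tested. Within that cluster the levels of Plau were 48.8 and 113 CPM for suffix 1 and 2.

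The highest levels of Plau were found in the Erfe-Gal-Asb5 muscle-like cluster with 147 CPM (114 to 187, 66 UMIs), the Smpd3-Sfrp2-Pi16 fibroblast-like cluster with 129 CPM (92.8 to 174, 42 UMIs) and the Myoc-Ptx3-Cxcl5 cluster with 101 CPM (90.9 to 112, 353 UMIs). The other 3 fibroblast-like clusters held between 1.19 and 4.29 CPM. Among macrophages, the inflammatory macrophage-like cells held 77.96 CPM (50.4 to 115, 25 UMIs), all from the library with suffix 1, the resident macrophage-like cells 55.01 CPM (46.3 to 64.9, 140 UMIs) and the Pf4-Cbr2-Ccl8 cluster 48.8 CPM (40.3 to 58.5, 115 UMIs), and these 3 intervals overlap. The log2 ratio of Plau for the resident macrophage-like cells was 1.70 (1.41 to 1.98), at 58.5 and 40.5 CPM in the libraries with suffix 1 and 2.

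Its receptor was found in most kinds of cell. Plaur (ENSMUSG00000046223, chr7:24462484-24475968, plus strand) stood at 517 CPM (494 to 540.4, 1925 UMIs) in endothelial-like, 449 CPM (422 to 477, 1043 UMIs) in pericyte-like, 412 CPM (404 to 420.1, 10497 UMIs) in macrophage and 139 CPM (133 to 146, 1879 UMIs) in fibroblast-like cells. Keratinocyte-like cells held 15.4 CPM (11.1 to 20.8, 42 UMIs). Without the cells carrying foreign markers, the pericyte-like level was 286 CPM (258 to 316, 387 UMIs). The log2 ratio of macrophage over fibroblast-like cells was 1.56 (1.49 to 1.64) over both libraries, but 2.26 in the library with suffix 1 and 0.85 (0.75 to 0.96), short of 2-fold, in the library with suffix 2. That of macrophage over endothelial-like cells was -0.33 (-0.40 to -0.26).

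Among macrophages the groups that led for Plaur and for Plau differed. The Klrb1b-Mmp12-Ccl17 cluster led with 874 CPM (845 to 903, 3501 UMIs) of Plaur and held 5.24 CPM (3.24 to 8.01, 21 UMIs) of Plau, whereas the resident macrophage-like cells held 125 CPM (112 to 139, 318 UMIs) of Plaur, a level undercut only by the 10.2 CPM (2.103 to 29.8, 3 UMIs) of the mature dendritic-like group. The Igkc-Cd79a-Cd207, Dcstamp Cd226 and Cfd-S100a9-S100a8 groups lay between, at 474, 469.7 and 441 CPM, with intervals that overlap. Both libraries put the Klrb1b-Mmp12-Ccl17 cluster first, with 951 and 675 CPM, and the resident macrophage-like cells low, with 115 and 168 CPM. After thinning, 73.3% (67.4 to 78.7) of the Klrb1b-Mmp12-Ccl17 cells, 17.7% (13.5 to 22.6) of the resident macrophage-like cells and 6.85% (2.26 to 15.3) of the keratinocyte-like cells had a UMI of Plaur. Without thinning these shares were 95.2%, 52.8% and 24.7%, at median depths of 15530, 8681 and 20204 UMIs.

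**Figure D4:**
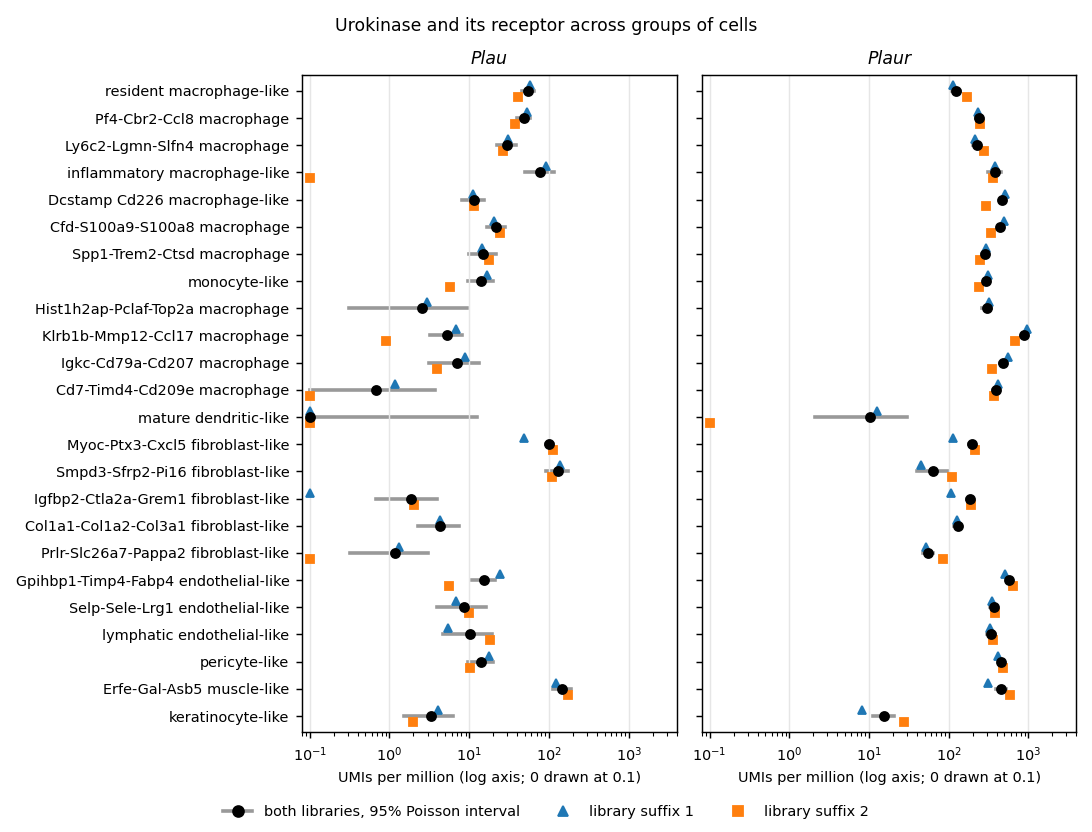
CPM of Plau and its receptor gene Plaur (log axes, 0 drawn at 0.1) in macrophage, fibroblast-like, endothelial-like, pericyte-like, keratinocyte-like and Erfe-Gal-Asb5 muscle-like groups, with symbols as in the plot of the coagulation factors. The Klrb1b-Mmp12-Ccl17 cluster has the highest Plaur level, 874 CPM, and a Plau level of 5.24 CPM, while resident macrophage-like cells have 125 CPM and 55.0 CPM.

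Endothelial-like and fibroblast-like cells were compared for 8 of the 9 genes, since F7 held 5 UMIs over both. F10, F13a1, Plaur and Thbd were at least 2-fold higher in the endothelial-like cells, beside 20.2% of 13833 genes compared, and F3 and Plau at least 2-fold lower, beside 19% of them. The higher F10 and F13a1 levels are those of the Gpihbp1-Timp4-Fabp4 cluster given above. In suffix 2 alone the log2 ratio of F13a1 was 0.44 (-0.30 to 1.13). For Plau the direction was that of 1 library, since in suffix 1 alone the log2 ratio was 0.85 in favour of the endothelial-like cells.

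Around the start of 7 of the 9 genes, 9 promoter stretches of 300 bases were searched on both strands for 5 motifs. These were the TATA box as TATAAA, the core of the GC box as GGGCGG, the core that AP-1 factors are known to bind as TGANTCA, a PU.1 box as GAGGAAGT, and a single exact kappa B sequence of 10 letters. The letters TGANTCA were found for 3 of the 7 genes, F3, Procr and Plaur, and in 7.81% of all 32851 promoters of the same length. These are shown, with every matched motif in capitals, since the 3 genes share these letters while F3 and Procr were highest in fibroblast-like clusters and Plaur in the Klrb1b-Mmp12-Ccl17 macrophage cluster (RefSeq, GRCm38.p6).
F3, chr3:121723287-121723586, plus strand: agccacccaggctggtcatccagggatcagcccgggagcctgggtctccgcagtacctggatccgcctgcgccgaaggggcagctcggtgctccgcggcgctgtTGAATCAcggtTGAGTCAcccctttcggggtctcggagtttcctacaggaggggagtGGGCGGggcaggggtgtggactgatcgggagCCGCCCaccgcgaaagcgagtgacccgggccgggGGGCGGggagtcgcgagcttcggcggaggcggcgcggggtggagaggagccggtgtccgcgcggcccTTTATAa
Procr, chr2:155750967-155751266, plus strand: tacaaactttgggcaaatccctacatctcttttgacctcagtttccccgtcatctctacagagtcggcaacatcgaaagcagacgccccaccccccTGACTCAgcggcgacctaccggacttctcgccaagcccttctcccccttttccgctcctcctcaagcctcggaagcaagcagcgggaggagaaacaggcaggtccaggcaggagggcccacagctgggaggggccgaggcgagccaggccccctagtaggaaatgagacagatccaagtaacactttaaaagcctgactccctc
Plaur, chr7:24462233-24462532, plus strand: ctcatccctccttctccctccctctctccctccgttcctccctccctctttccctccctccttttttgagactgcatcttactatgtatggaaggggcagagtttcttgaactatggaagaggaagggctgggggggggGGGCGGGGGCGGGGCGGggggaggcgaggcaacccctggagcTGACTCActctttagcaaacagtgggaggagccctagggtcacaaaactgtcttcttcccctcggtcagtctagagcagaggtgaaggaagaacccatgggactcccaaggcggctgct

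In F3 the TGANTCA matches begin 146 and 135 bases before the start, in Procr 154 and in Plaur 69 bases before it. The start is that of RefSeq, which for F3 is also that of GENCODE, for Plaur lies within 1 base of it, and for Procr lies 100 bases inside the gene as GENCODE has it. F3 and Plaur also held 3 matches to GGGCGG each, of which the last 2 in Plaur overlap by 1 base. Tfpi held GGGCGG on the other strand before each of its 2 starts, and this motif is in 35.7% of all promoters. Those starts lie 16 and 2601 bases inside the gene as GENCODE has it. TATAAA was found on the other strand in F3, at position 43 after the start, and before 1 of the starts of Tfpi, a match shared by 13.6% of promoters. One of the 2 starts of F13a1 held GAGGAAGT, at position 14 after it, as did 3.2% of all promoters. That start lies 1031 bases inside the gene as GENCODE has it. The other start, which is also that of GENCODE, held no match to any motif. The exact kappa B sequence was in none of the 7 and in 0.155% of all promoters. Variants of that site were not searched, so that their presence in these stretches stays open. A match describes the letters of the reference and says nothing of binding in these cells.
F13a1, chr13:37049164-37049463, minus strand: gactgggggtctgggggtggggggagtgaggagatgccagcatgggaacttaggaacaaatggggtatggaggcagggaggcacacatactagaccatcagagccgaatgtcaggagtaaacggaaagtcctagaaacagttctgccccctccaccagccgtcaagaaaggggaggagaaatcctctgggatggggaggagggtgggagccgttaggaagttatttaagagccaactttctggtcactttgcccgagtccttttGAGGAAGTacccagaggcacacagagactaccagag

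Of a list of 46 other genes of the pathway, 6 had no UMI in any of the 3797 cells (F13b, Fgb, Kng1, Plg, Cpb2 and A2m) and 9 had fewer than 10 (F9, F11, F12, Fga, Fgg, Proc, Serpina5, Serpina10 and F2rl3). These include plasminogen (Plg), the substrate of urokinase, protein C (Proc), the substrate of thrombomodulin and the protein C receptor, and the B subunit of factor XIII (F13b), all known as products of the liver. Fibrinogen (Fga, Fgb and Fgg) came to 3 UMIs in all. The share of all genes with as few UMIs in all cells was not computed. Over macrophage and fibroblast-like cells, 26 of the 46 genes had 10 UMIs or more, beside 14964 of all 32285 genes. The low counts are therefore not read as particular to the pathway.

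Some other genes of the pathway were higher in fibroblast-like than in macrophage cells. Protease nexin 1 (Serpine2), an inhibitor of thrombin and urokinase, stood at 349 CPM (339 to 359, 4710 UMIs) in fibroblast-like and 1.77 CPM (1.29 to 2.36, 45 UMIs) in macrophage cells, and tissue plasminogen activator (Plat) at 137 CPM (130.4 to 143, 1841 UMIs) and 10.4 CPM (9.19 to 11.7, 265 UMIs). The thrombin receptor F2r stood at 39.2 CPM (35.96 to 42.7, 529 UMIs) in fibroblast-like and 0.707 CPM (0.419 to 1.12, 18 UMIs) in macrophage cells. All 3 were thus higher in the fibroblast-like cells, in each library.

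The vessel wall genes had other leaders. Vwf, which carries factor VIII and tethers platelets, stood at 212 CPM (198 to 227, 790 UMIs) in endothelial-like cells and factor V (F5) at 18.8 CPM (14.6 to 23.7, 70 UMIs), with 65.8 CPM (51.2 to 83.3, 69 UMIs) in the Selp-Sele-Lrg1 cluster. Factor VIII (F8) was found mainly in the lymphatic endothelial-like cells, which held 27 of its 38 UMIs, or 30.5 CPM. Protein S (Pros1), the cofactor of activated protein C, was spread over most kinds of cell, at 144 CPM in fibroblast-like, 96.9 in endothelial-like and 78.7 in macrophage cells. Its highest macrophage level was that of the resident macrophage-like cells with 242 CPM (224 to 262, 617 UMIs), the group that also led for Thbd.

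Of the 46 genes, 26 could be compared between macrophage and fibroblast-like cells, where 5 were at least 2-fold higher in macrophages (Vwf, Serpinb2, Serpinf2, F2rl2 and Entpd1), beside 19.9% of all genes compared, and 9 lower, beside 29.9%, with a median log2 ratio of -0.19. Of these 5, Vwf stood at 8.28 CPM in macrophages, far below the 212 CPM of the endothelial-like cells. Serpinb2, an inhibitor of plasminogen activators, stood at 3.102 CPM in macrophages and 377 CPM in keratinocyte-like cells, where it was highest. The fibroblast-like cells held 1 UMI each of Serpinb2 and Serpinf2. The annexin A2 partner S100a10 stood at 1639.7, 2036 and 1215 CPM in macrophage, fibroblast-like and endothelial-like cells, and Anxa2, which with it binds plasminogen at the cell surface, at 955, 752 and 598 CPM. Anxa5, which covers the membrane lipids on which clotting factors assemble, stood at 814, 828 and 412 CPM. Thbs1 was highest in the fibroblast-like cells, with 1438 CPM beside 611 in macrophages, while Tgm2, a transglutaminase related to factor XIII-A, stood at 357 CPM in the endothelial-like cells and at 42.6 in macrophages. The log2 ratio of Thbs1 for macrophage over fibroblast-like cells was -0.44 in suffix 1, short of 2-fold, and -1.78 in suffix 2. For Anxa5 it had opposite directions, at 0.43 in suffix 1 and -0.47 in suffix 2.

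**Figure D5:**
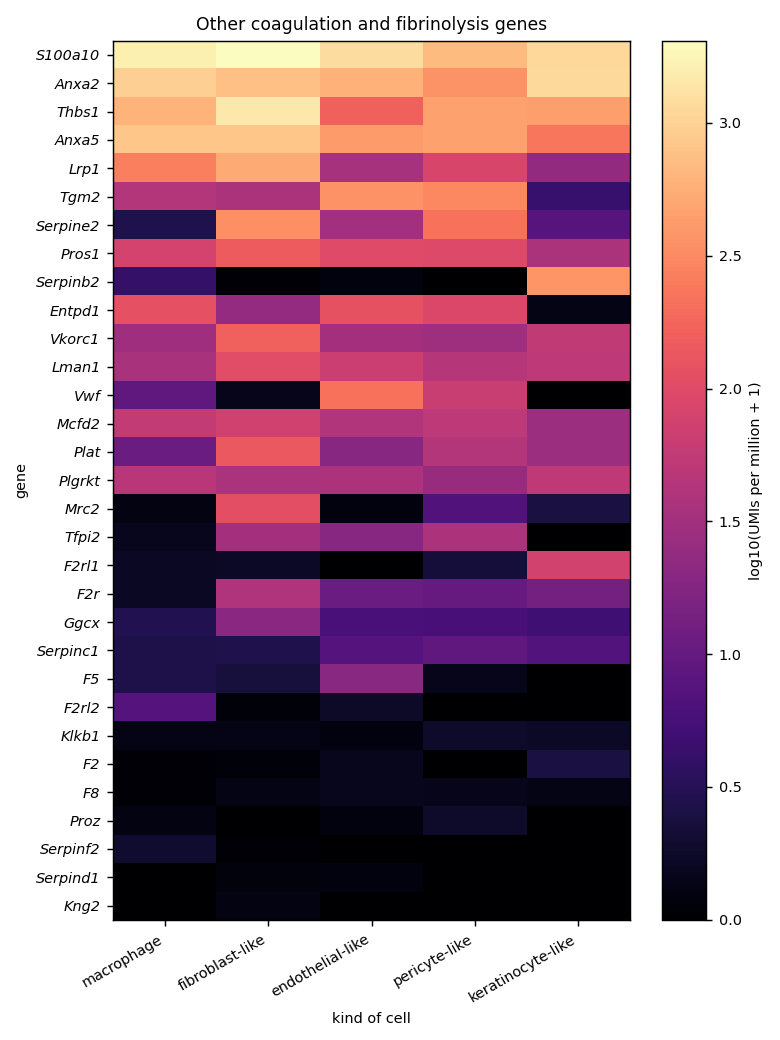
Level of 31 other pathway genes with at least 10 UMIs (rows, ordered by their mean over the columns) in macrophage, fibroblast-like, endothelial-like, pericyte-like and keratinocyte-like cells (columns), as log10 of CPM plus 1. Serpine2 and Plat stand out in the fibroblast-like column, at 349 and 137 CPM, Vwf and F5 in the endothelial-like column, and Serpinb2 in the keratinocyte-like column.

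Over the 28 clusters, the genes whose log2 levels were most like those of each member were ranked among 12140 genes with at least 100 UMIs, as a description with no test. F13a1 went along with the complement genes C1qc (r = 0.95), C1qb (r = 0.94) and C1qa (r = 0.94). F3 was nearest to Sfrp1 (r = 0.95), which encodes a secreted Wnt antagonist, F7 to Trem1 (r = 0.89), a myeloid receptor gene, and F10 to Sirpb1b (r = 0.83). For Plau these were Ccl2 (r = 0.84) and Cxcl2 (r = 0.81), both chemokine genes, and for Plaur Mid1 (r = 0.84). Thbd and Tfpi shared neighbours, with Sash1 (r = 0.83) for Thbd and Sash1 (r = 0.84) for Tfpi, while A4galt reached r = 0.80 and r = 0.87. Procr was nearest to Npr1 (r = 0.81), the receptor of atrial natriuretic peptide. F7 and F10 likewise shared Trem1 among their 3 nearest genes.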

How the data were processed

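The authors deposited whole-number UMI counts of both libraries as 1 matrix, made with Cell Ranger 4.0.0 from droplet libraries of 3′ chemistry on mm10, per the file header and the submitters' processing notes. The sources used here name no annotation and no filter before deposit.

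A barcode was kept as a cell from 500 genes and 1000 UMIs on, unless mitochondrial genes held over 10% of its UMIs (Python 3.11.15, scanpy 1.11.5, numpy 2.4.6, scipy 1.17.1). Of the barcode sequences, 1 occurred in both libraries, and no such pair was kept whole. Each cell was scaled to 10000 UMIs and logged. Leiden clusters (leidenalg 0.10.2 with igraph 0.11.9, resolution 1, seed 1) were built on 15 neighbours in 30 principal components of 2000 variable genes, among which the 9 members and the pathway genes were not allowed. Clusters were named by the mean log2 excess of marker lists, by a rule settled only once the clusters were known. Outside the macrophages, among lists within 1 of the best, the list with more markers among the 10 leading genes was taken. The pericyte-like cluster was named in this way over a list that scored at least as high. A list of a macrophage subset had to lead the next by 1. No doublet caller was used. In its place, cells with over 0.5% of their UMIs on markers of another compartment were left out as an alternative.

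UMIs were summed per group and divided by the group total (CPM), with exact Poisson intervals at 95%. Ratios have an exact interval from both sums, need 10 UMIs over both groups, and count as different from 2-fold on. A sum of 0 was replaced by a limit of 3 counts. For shares of cells with a UMI, every cell was first thinned to 2000 UMIs, with exact Clopper-Pearson intervals. All intervals cover counting error only, and with 1 library per age no p-value was computed. The ratio script was tested on simulated counts. The members, gene lists and markers were chosen with earlier results of these data known. Named are the 9 members, the pathway genes with fewer than 10 UMIs or among the 4 highest of a compartment, 7 pathway genes listed by name, the 3 genes most like each member, and F8, Serpinb2, Serpinf2, F2rl2 and Entpd1, which were singled out after their values were seen. Gene positions follow GENCODE vM21 (GRCm38), in which 32158 of 32285 gene identifiers were found, and promoter stretches follow RefSeq, with entries for 7 of the 9 members. Protein sequences were not used here, and some genes are not reported here. The alternatives varied the cell filter, the resolution, the number of variable genes, the library, the weighting, the depth, the treatment of mixed cells, the fold and the minimum of UMIs.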

Additional observations from a re-analysis of the deposited data

Results flagged for a closer look

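The 1460 barcodes left out by the filter on cells hold 5403713 UMIs and entered no comparison, yet each of the 9 genes was found in them above the limit of 0.555 CPM that 3 counts allow. F13a1 stood at 140 CPM (130.1 to 150.2, 756 UMIs), Plaur at 118 CPM, Procr at 67.9 CPM and Thbd at 58.8 CPM. Plau stood at 19.8 CPM, Tfpi at 11.5 CPM, F3 at 10.9 CPM and F10 at 4.26 CPM. F7 stood at 0.74 CPM (0.202 to 1.90, 4 UMIs), an interval that includes the limit. The kinds of cell behind these barcodes were not analysed.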

How the results depend on the processing

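No paired analysis was possible because each age has 1 library and no barcode suffix is tied to an age. Of 198 values for counts of genes and pairs, 158 stayed within 1.5 times those reported and 40 moved further, while of 621 ratios of single genes 399 stayed within the counting interval of the value reported, 214 moved outside it and 8 that had been past 2-fold changed direction. The counts of members higher or lower between macrophage and fibroblast-like cells, and for the resident macrophage-like cells, stayed within 1.5 times, but between macrophage and fibroblast-like cells the members changed, since Plau was higher in suffix 1 alone and lower in suffix 2 alone, where Plaur was no longer higher. Macrophage over endothelial-like cells, 5 members were higher with mixed cells left out or as a mean over cells, and 1 was lower under the looser filter or at 4-fold. Endothelial over fibroblast-like cells, 4 were lower under the looser filter, in suffix 2 alone, as a mean over cells or thinned, 1 in suffix 1 alone and at 4-fold, 1 was higher at 4-fold, and the log2 ratio of Plau was 0.85 in suffix 1. For the Dcstamp Cd226 macrophage-like cells, 4 were lower under the stricter and looser filters, at resolution 2 and with 3000 variable genes, and 1 in suffix 2 alone or at 4-fold. For the monocyte-like cells, 1 was lower under the looser filter and at resolution 0.5, where the ratio of Thbd was 0.32 and 0.083, 5 in suffix 2 alone and 0 at 4-fold. For the inflammatory macrophage-like cells, the ratio of F10 was 0.55 under the stricter filter, 0.19 under the looser one and 1.35 with 3000 variable genes; 1 was higher in these 3 settings and in suffix 2 alone, and 0 at 4-fold, while 0 were lower in these 3 settings and thinned, and 1 at resolution 2 and at 4-fold. For the mature dendritic-like cells, the ratio of Procr was -0.73 under the looser filter and -0.16 at resolution 0.5, 0 were higher in both settings, under the stricter filter, thinned and at 4-fold, and 2 were lower in suffix 2 alone and thinned. The calls of these small groups therefore depend on where their borders lie. With 3000 variable genes 4 of the 5 named macrophage groups were found, and ratios in which a group held no UMI and the limit gave no direction are not given. Of the 27 pairs, 10 held a UMI in 10% or more of thinned cells and 17 at full depth, and the share over all genes was not computed. The cause of these moves was not tested.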
